A study of Mus musculus with 15 samples.

Results

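The 10 genes described here belong to the Bcl2 family, which controls the mitochondrial route to apoptosis. They were taken by symbol from both deposited expression tables. The set was chosen by gene name, but with earlier results of these data known. All 10 were found among 24819 genes. By role they comprise 3 pro-survival genes (Bcl2, Bcl2l1 and Mcl1), 2 effectors (Bax and Bak1) and 5 BH3-only genes (Bbc3, Pmaip1, Bid, Bcl2l11 and Bik).

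RNA was sequenced from the mouse embryonic stem cell line E14, grown on gelatin in serum with leukemia inhibitory factor. Control cells were transfected with a non-targeting siRNA (siNT), and each of the other 4 groups with siRNA to 1 gene, Rpl11, Rpl14, Rpl18 or Rpl23, all of which encode proteins of the large ribosomal subunit (siRpl11, siRpl14, siRpl18 and siRpl23). All groups, siNT included, thus went through transfection, and untransfected cells were not analysed here. The titles give 48 h whereas the treatment protocol gives 3 days of knockdown, and which applies was not settled. Each group had 3 libraries: replicates 1 and 2 stood in 1 table, and the third library of each group in a table that was normalized separately. Levels are FPKM, fragments scaled to transcript length and to library size, so they can be compared between genes per length. How library size was set was not given.

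Pro-survival proteins such as Bcl-xL (from Bcl2l1) and Mcl1 hold the effectors Bax and Bak in check on the outer mitochondrial membrane. BH3-only proteins are stress-induced or stress-activated ligands that bind the pro-survival proteins or the effectors, after which Bax and Bak open the membrane, cytochrome c leaves and Apaf1 assembles the caspase-activating apoptosome. Bbc3 (Puma), Pmaip1 (Noxa) and Bax are known transcriptional targets of p53, and excess ribosomal proteins, Rpl11 and Rpl23 among them, are known to bind Mdm2, the ubiquitin ligase of p53.

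Promoter windows from RefSeq, build GRCm38.p6 (the expression tables used mm9), are shown for Bax, Bbc3 and Bcl2l1. Bax and Bbc3 are those of the p53 targets named above for which a window was used. In replicates 1 and 2 the log2(FPKM + 1) of Bcl2l1 rose most among the 9 tested members in siRpl14 and siRpl23. In the third libraries Bbc3 (1.58 and 1.74) and Pmaip1 (1.30 and 1.29) rose more there than Bcl2l1 (1.20 and 1.16). Each window runs from 250 bases before to 50 bases after an annotated transcript start, 5′ to 3′, and where a gene has several starts the most upstream is shown. Capitals mark the 10-base p53 consensus unit, of which p53 sites hold a pair, and the GC box GGGCGG, on either strand.

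Bax (chr7:45466849-45467148, - strand): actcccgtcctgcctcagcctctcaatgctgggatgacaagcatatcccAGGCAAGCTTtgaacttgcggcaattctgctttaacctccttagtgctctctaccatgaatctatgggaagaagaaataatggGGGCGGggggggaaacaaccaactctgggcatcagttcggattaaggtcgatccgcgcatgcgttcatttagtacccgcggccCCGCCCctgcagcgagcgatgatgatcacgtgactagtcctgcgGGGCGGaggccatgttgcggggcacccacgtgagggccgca

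Bbc3 (chr7:16309333-16309632, + strand): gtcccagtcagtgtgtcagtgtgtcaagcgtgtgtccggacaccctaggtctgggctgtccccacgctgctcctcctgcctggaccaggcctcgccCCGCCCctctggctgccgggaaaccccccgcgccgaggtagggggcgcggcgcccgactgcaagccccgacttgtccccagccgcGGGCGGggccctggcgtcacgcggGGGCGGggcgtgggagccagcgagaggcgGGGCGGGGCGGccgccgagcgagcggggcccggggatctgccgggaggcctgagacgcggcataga

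Bcl2l1 (chr2:152831679-152831978, - strand): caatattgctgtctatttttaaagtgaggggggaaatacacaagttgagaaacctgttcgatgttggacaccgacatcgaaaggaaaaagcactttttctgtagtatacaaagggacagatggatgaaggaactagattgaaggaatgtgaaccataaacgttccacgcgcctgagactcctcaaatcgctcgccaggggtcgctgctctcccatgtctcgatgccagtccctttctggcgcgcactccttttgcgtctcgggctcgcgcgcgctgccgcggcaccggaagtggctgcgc

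The search covered 13 windows of 8 members. The p53 unit occurred in 1 of them, in Bax, as AGGCAAGCTT with its first base at -201 from the transcript start; 8.36% of 32851 mouse promoter windows of this length hold a match. GC boxes occurred in 9 of the 13 windows (35.7% of all windows), CCAAT on either strand in 3 (37.4%) and TATAAA in 0 (13.6%). Some Bbc3 windows overlap (chr7:16310011-16310310 and chr7:16310181-16310480) and share GC boxes, so the windows are not independent of each other. GC boxes were found 3 times in the Bax window and 5 times in the Bbc3 window shown, and the 3 Bcl2l1 windows held none of these motifs. Different motifs shared no letters in these windows, although neighbouring GC boxes could share a base. These are matches of letters in short windows.

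The targeted transcripts and cell markers were checked first. Each targeted gene was lower in its own knockdown, with 24.0% of the siNT level left for Rpl11, 51.6% for Rpl14, 32.6% for Rpl18 and 36.3% for Rpl23. Low values move in steps of single reads, which gave relative depths of 0.697 to 1.40 among the 10 libraries of the first table and a highest of 1.26 in the other, each against the first siNT library of its table; absolute depth is unknown. All 10 embryonic stem cell markers were at 1 FPKM or more in every library. Their summed level was 7266 to 8297 FPKM in siNT and 6678 to 7282 in siRpl11. The same sum was 5400 to 6484 in siRpl14, 5538 to 6348 in siRpl18 and 5445 to 6499 in siRpl23. Of 10 fibroblast or feeder markers 8 were below 1 FPKM in every library, and the sum was 17.0 to 20.3 FPKM in siNT and 4.33 to 11.6 in the knockdowns. The sum of 8 primitive endoderm markers was 11.5 to 17.4 FPKM in siNT, 7.61 to 13.0 in siRpl11, 12.0 to 16.8 in siRpl14, 13.6 to 21.4 in siRpl18 and 10.6 to 19.2 in siRpl23. The number of these markers at 1 FPKM or more in every library was 2 in siNT, 4 in siRpl18 and 3 in each other knockdown, and those below 1 FPKM in every library were Gata6, Gata4, Sox17, Sox7, Foxa2 and Dab2 in siNT but Sox17 and Sox7 alone in siRpl18. The summed level of 8 trophectoderm markers was 30.2 to 31.9 FPKM in siNT, 28.0 to 32.0 in siRpl11, 85.9 to 103 in siRpl14, 62.8 to 68.2 in siRpl18 and 86.7 to 99.6 in siRpl23. It was thus higher in the same 3 knockdowns in which most members rose. In siNT 4 of the 8 markers reached 1 FPKM in every library while Cdx2, Elf5, Gata3 and Hand1 were below it in each, and in siRpl14 and siRpl23 7 of the 8 reached it in every library, with Elf5 below it in each. The part of these markers in the results below was not tested.

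In siNT cells the members spanned a wide range of levels. Mcl1 (223 ± 8.10 FPKM, SD, n = 2) and Bax (217 ± 13.2) were highest and could not be ordered, since their libraries overlapped. Bak1 (32.8 ± 0.346), Bid (26.7 ± 0.316), Bbc3 (24.5 ± 0.0512), Pmaip1 (22.1 ± 0.448) and Bcl2l1 (21.8 ± 1.27) followed; Pmaip1 and Bcl2l1 overlapped. Bcl2l11 (10.5 ± 1.20) and Bik (3.50 ± 0.413) were lower. The separately normalized siNT library placed Bax (281 FPKM) above Mcl1 (216) and Bbc3 (15.4) below Bcl2l1 (23.4), Bid (19.2) and Pmaip1 (18.6), so the order among these is not fixed by the data. Bcl2, the founding member of the family, lay at 0.0279 to 0.405 FPKM over all 15 libraries, under 1 FPKM in each. Bcl2 therefore did not pass the filter of 1 FPKM in at least 2 libraries, and 9 of the 10 members were tested. In bulk RNA a lower level in every cell and fewer expressing cells cannot be told apart.

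**Figure D1:**
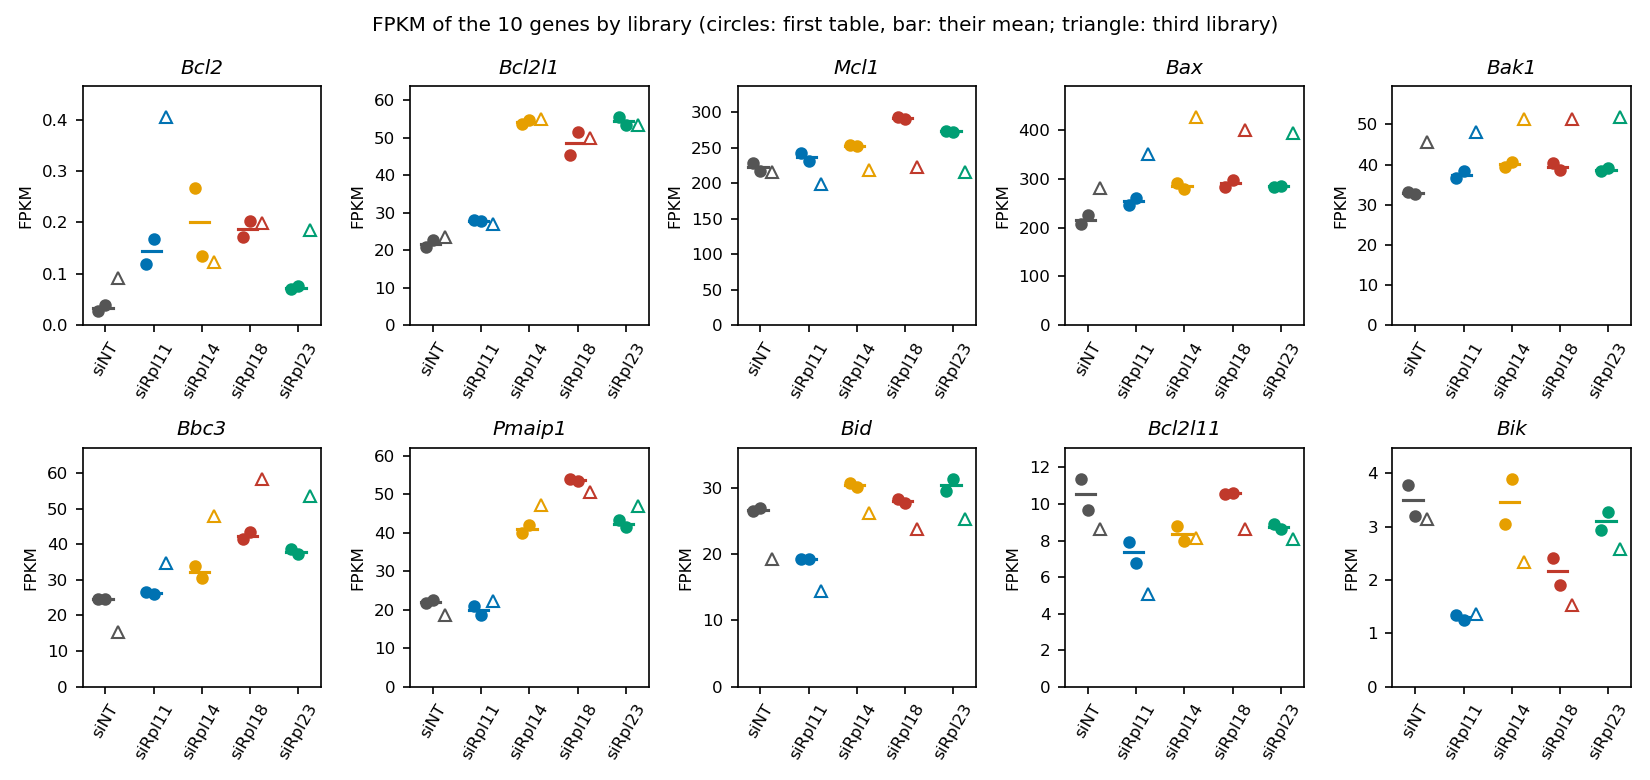
FPKM of each of the 10 genes (linear y axis from 0) in the 5 siRNA groups. Filled circles are replicates 1 and 2, the bar is their mean, and the open triangle is the third library, from a separately normalized table; Bcl2l1 and Pmaip1 stand apart from siNT in siRpl14, siRpl18 and siRpl23 in both tables, while Mcl1 does so in the first table only.

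In siRpl14, siRpl18 and siRpl23 cells most members rose against siNT, both pro-survival and pro-death. With limma on replicates 1 and 2 (adjusted p under 0.05 over 12249 genes), 7 of 9 tested members rose and 1 fell in siRpl14, 6 rose and 1 fell in siRpl18, and 7 rose and 1 fell in siRpl23. In siRpl11 3 rose and 4 fell. Over all genes tested, 33.3% rose and 29.5% fell in siRpl14, 32.8% and 34.7% in siRpl18, 34.9% and 30.8% in siRpl23, and 27.3% and 43.6% in siRpl11. The share of members that rose thus lay above the share of all genes in siRpl14, siRpl18 and siRpl23, and the 3 of 9 in siRpl11 lay near it. The median log2 fold change of tested members was 0.28, 0.39, 0.29 and 0.08 in siRpl14, siRpl18, siRpl23 and siRpl11, beside 0.02, -0.02, 0.02 and -0.11 over all genes. Quantile normalization moved the median of all genes in siRpl11 by 0.12 and that of the members there to 0.03, with 50.9% of called genes higher in place of 38.5%. Median-ratio scaling gave a median of 0.18 for the members and -0.03 for all genes in siRpl11, with 47.4% of called genes higher. The 4 comparisons share the siNT libraries and are not independent of each other.

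**Figure D2:**
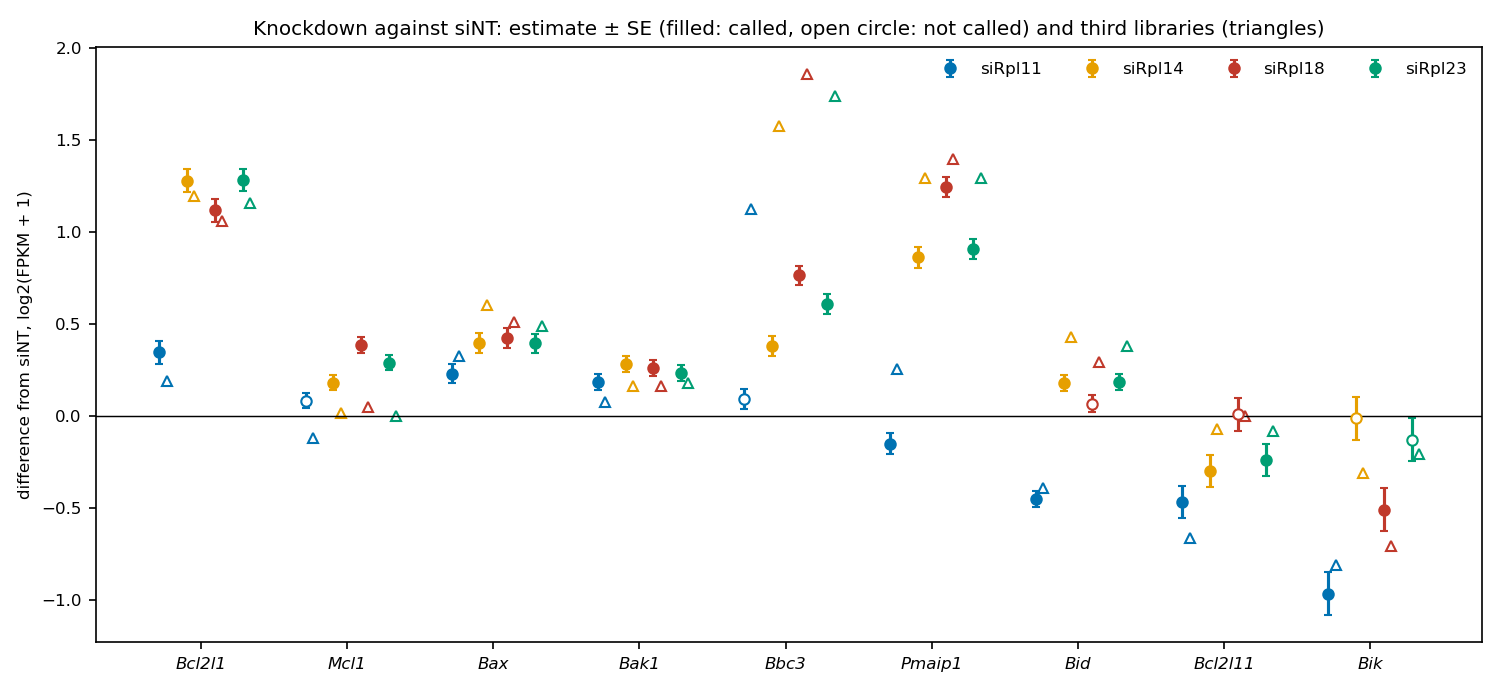
Difference of each tested member from siNT on the log2(FPKM + 1) scale, by knockdown. Circles are limma estimates from replicates 1 and 2 with their SE as bars (filled where called, open where not), and triangles are the differences between the third libraries; Bcl2l1 is above 1 in siRpl14, siRpl18 and siRpl23 but at 0.35 in siRpl11, and the Bbc3 triangles lie well above the circles.

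Bcl2l1 changed more than Mcl1, the other pro-survival member that passed the filter. Its 2 siNT libraries were at 20.9 and 22.7 FPKM, against 28.2 and 27.7 in siRpl11, 53.7 and 54.9 in siRpl14, 45.4 and 51.6 in siRpl18, and 55.5 and 53.4 in siRpl23. In the separately normalized table Bcl2l1 was at 23.4 in siNT and 26.9, 55.1, 49.9 and 53.5 in the knockdowns in the same order. No knockdown library overlapped with siNT in either table, and the siRpl11 libraries lay between siNT and the rest. Bcl2l1 rose by 1.28 ± 0.06 in siRpl14 (log2 fold change ± SE, adjusted p = 1.03e-07), which is 2.49-fold in mean FPKM. The rise was 1.12 ± 0.06 in siRpl18 (adjusted p = 2.00e-07), 1.28 ± 0.06 in siRpl23 (adjusted p = 8.53e-08) and 0.35 ± 0.06 in siRpl11 (adjusted p = 0.000604). All fold changes were taken from log2(FPKM + 1), so those of genes at low FPKM are understated.

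Mcl1, whose short-lived protein blocks Bak and Bax, changed less. Replicates 1 and 2 were at 229 and 218 FPKM in siNT, 243 and 231 in siRpl11, 254 and 253 in siRpl14, 293 and 291 in siRpl18, and 274 and 273 in siRpl23. It rose by 0.18 ± 0.04 in siRpl14 (adjusted p = 0.00357), 0.39 ± 0.04 in siRpl18 (adjusted p = 2.06e-05) and 0.29 ± 0.04 in siRpl23 (adjusted p = 0.000159), and missed the threshold in siRpl11 (0.08 ± 0.04, adjusted p = 0.0959). That siRpl11 value passed with median-ratio scaling (0.18, adjusted p = 0.00214) and with the replicate number as a block (adjusted p = 0.0263). In the third libraries Mcl1 was at 216 FPKM in siNT and at 198, 218, 224 and 216 in siRpl11, siRpl14, siRpl18 and siRpl23. There the differences were -0.12, 0.02, 0.05 and 0.00, so the rise of the first table was at most 0.05 in the other. With all 15 libraries and the table as a term the siRpl14 call ended (0.13, adjusted p = 0.0712), and those of siRpl18 (0.27, adjusted p = 0.000809) and siRpl23 (0.19, adjusted p = 0.00892) did not.

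Bcl2 was measured at 0.0279 and 0.0400 FPKM in siNT, 0.120 and 0.168 in siRpl11, 0.267 and 0.135 in siRpl14, 0.171 and 0.203 in siRpl18, and 0.0699 and 0.0760 in siRpl23. In the other table Bcl2 was at 0.0913 in siNT and 0.405, 0.123, 0.199 and 0.186 in the knockdowns. Every knockdown library was higher than the siNT libraries of its own table. Without the filter, limma put the difference at 0.15 in siRpl11 (adjusted p = 0.0469), 0.21 in siRpl14 (adjusted p = 0.0111), 0.20 in siRpl18 (adjusted p = 0.0138) and 0.05 in siRpl23 (adjusted p = 0.438). Values this low move in steps of single reads, and their counting error could not be given because depth is known only in relative terms. At these levels Bcl2 made up 0.0111% to 0.179% of the summed FPKM of Bcl2, Bcl2l1 and Mcl1. The annotation GENCODE M21 has an antisense gene over exons of Bcl2, and it is not stated whether counting used strand.

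Among the 3 pro-survival members the make-up of the transcripts therefore moved from Mcl1 towards Bcl2l1. Of the summed FPKM of Bcl2, Bcl2l1 and Mcl1, Bcl2l1 held 8.35% and 9.44% in siNT, 10.4% and 10.7% in siRpl11, 17.5% and 17.8% in siRpl14, 13.4% and 15.1% in siRpl18, and 16.9% and 16.4% in siRpl23. In the third libraries it held 9.77% in siNT and 11.9%, 20.1%, 18.2% and 19.8% in the same order. In each table the siRpl14, siRpl18 and siRpl23 shares lay above those of siNT and siRpl11. Shares within a library do not change with its scaling, and they were not tested. The sum leaves out Bcl2l2, a further pro-survival gene of the family, at 7.93 FPKM in siNT (mean, n = 2). Bcl2l2 was called lower in each knockdown, at 4.09, 5.73, 5.66 and 5.61 in siRpl11, siRpl14, siRpl18 and siRpl23.

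Bax, the effector that moves from the cytosol to mitochondria, was at 207 and 226 FPKM in siNT, 247 and 261 in siRpl11, 292 and 279 in siRpl14, 284 and 298 in siRpl18, and 284 and 286 in siRpl23. The third libraries gave 281 in siNT and 352, 427, 401 and 395. The siNT libraries were the lowest in each table. In GENCODE M21 exons of Gm45808, a gene of the same strand with no row in the tables used, overlap those of Bax, so reads of both cannot be told apart. Bax rose in all 4 knockdowns, by 0.23 ± 0.05 in siRpl11 (adjusted p = 0.00266), 0.40 ± 0.05 in siRpl14 (adjusted p = 9.92e-05), 0.42 ± 0.05 in siRpl18 (adjusted p = 5.17e-05) and 0.40 ± 0.05 in siRpl23 (adjusted p = 9.27e-05).

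Bak1, the effector that resides on mitochondria, was at 33.1 and 32.6 FPKM in siNT. It was at 36.6 and 38.3 in siRpl11, 39.5 and 40.8 in siRpl14, 40.5 and 38.6 in siRpl18, and 38.4 and 39.1 in siRpl23. In the third libraries it went from 45.6 in siNT to 48.1, 51.3, 51.3 and 51.8. The siNT libraries were again the lowest in both tables. Bak1 rose by 0.19 ± 0.04 in siRpl11 (adjusted p = 0.00342), 0.28 ± 0.04 in siRpl14, 0.26 ± 0.04 in siRpl18 and 0.23 ± 0.04 in siRpl23 (adjusted p = 0.000303, 0.000450 and 0.000968). Exons of Bak1 overlap those of Ggnbp1 on the opposite strand in GENCODE M21; Ggnbp1 went the other way, from 6.73 ± 0.316 FPKM in siNT to between 2.92 and 3.28 in the knockdowns (means, n = 2).

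Set against each other within a library, Bax exceeded Bcl2l1 by 9.93 and 9.96 times in siNT and by 8.78 and 9.43 times in siRpl11. The ratio was 5.43 and 5.09 in siRpl14, 6.26 and 5.77 in siRpl18, and 5.11 and 5.36 in siRpl23. In the third libraries it was 12.0 in siNT, 13.1 in siRpl11, and 7.75, 8.03 and 7.39 in siRpl14, siRpl18 and siRpl23. In both tables the ratio of this pro-death to this pro-survival transcript was thus lower in these 3 knockdowns, whereas siRpl11 was below siNT in the first table and above it in the other. Bax and Bak1 together stood at 0.961 and 1.08 times the summed FPKM of Bcl2, Bcl2l1 and Mcl1 in siNT. The knockdown libraries of the first table were at 0.958 to 1.16 times, so the groups overlapped on this ratio. In the third libraries the same ratio was 1.36 in siNT and 1.65 to 1.77 in the knockdowns.

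**Figure D3:**
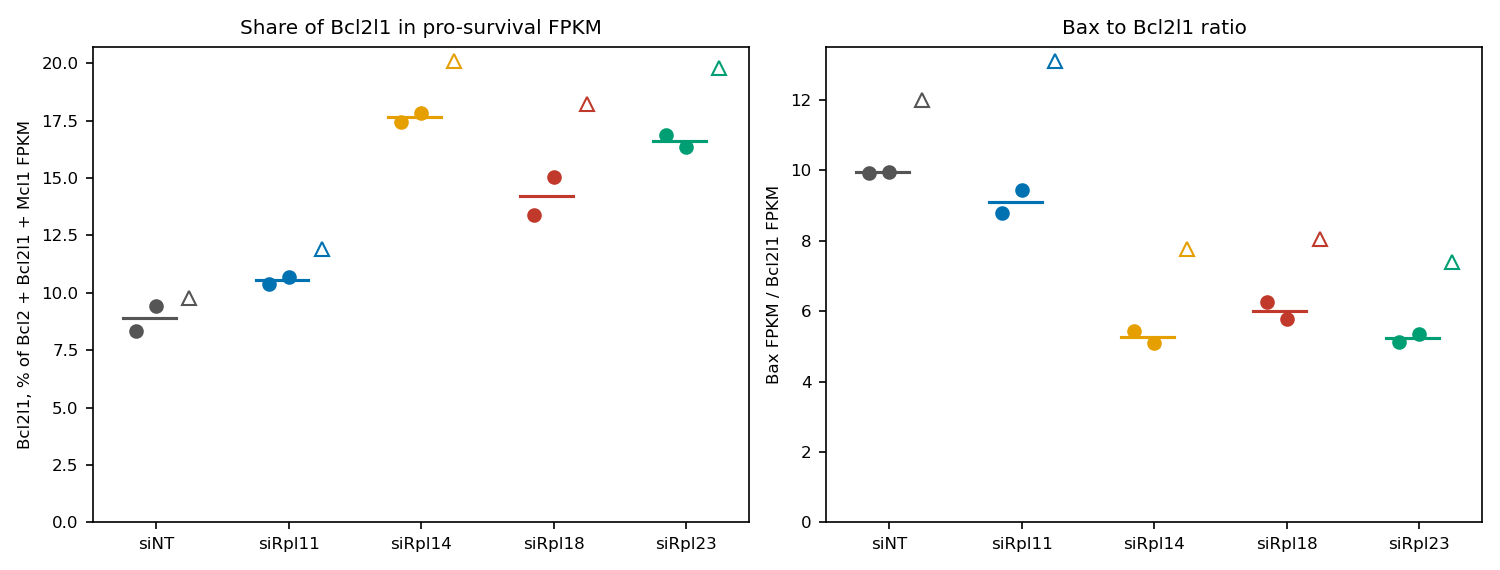
Left, share of Bcl2l1 (percent) in the summed FPKM of Bcl2, Bcl2l1 and Mcl1; right, Bax FPKM divided by Bcl2l1 FPKM, by siRNA group, with both axes from 0. Circles are replicates 1 and 2, bars their mean and triangles the third libraries; siRpl14, siRpl18 and siRpl23 lie above siNT on the left and below it on the right in both tables.

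The BH3-only genes did not move as 1 group. Bbc3, which encodes Puma, a ligand of all pro-survival proteins, was at 24.6 and 24.5 FPKM in siNT, 26.4 and 26.0 in siRpl11, 34.0 and 30.5 in siRpl14, 41.5 and 43.3 in siRpl18, and 38.5 and 37.3 in siRpl23. It rose by 0.38 ± 0.05 in siRpl14 (adjusted p = 0.000160), 0.76 ± 0.05 in siRpl18 (adjusted p = 9.94e-07) and 0.61 ± 0.05 in siRpl23 (adjusted p = 5.32e-06), and by less than the threshold required in siRpl11 (0.09 ± 0.05, adjusted p = 0.144).

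Bbc3 was also the member on which the tables differed most in size. The third siNT library was at 15.4 FPKM, below both other siNT libraries, and the third knockdown libraries were at 34.8, 47.9, 58.4 and 53.6 in siRpl11, siRpl14, siRpl18 and siRpl23, above those of the first table. The differences from siNT there were 1.13, 1.58, 1.86 and 1.74, and the order of the 4 knockdowns was the same in both tables. With all 15 libraries Bbc3 rose by 0.44 in siRpl11 (adjusted p = 0.0484) and by 0.78, 1.13 and 0.99 in siRpl14, siRpl18 and siRpl23. The siRpl11 value also passed after quantile normalization (0.14, adjusted p = 0.0431) and median-ratio scaling (0.19, adjusted p = 0.00784). Whether the knockdown effect on Bbc3 differs between the tables was not tested, since the other table has 1 library a group.

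Pmaip1, which encodes Noxa, a ligand mainly of Mcl1, was at 21.8 and 22.4 FPKM in siNT, 40.0 and 42.0 in siRpl14, 54.0 and 53.5 in siRpl18, and 43.2 and 41.5 in siRpl23. The third libraries gave 18.6 in siNT and 47.1, 50.5 and 47.0 in these knockdowns. None of these knockdown libraries overlapped with siNT. Pmaip1 rose by 0.86 ± 0.06 in siRpl14 (adjusted p = 7.16e-07), 1.24 ± 0.06 in siRpl18 (adjusted p = 4.64e-08) and 0.91 ± 0.06 in siRpl23 (adjusted p = 4.34e-07). In siRpl11 it was at 21.0 and 18.7 FPKM and was called lower (-0.15 ± 0.06, adjusted p = 0.0340). That call is weak: the third siRpl11 library, at 22.4, was above its siNT by 0.25, and the call ended with all 15 libraries (-0.01, adjusted p = 0.883), with quantile normalization (-0.09, adjusted p = 0.145) and with median-ratio scaling (-0.05, adjusted p = 0.374). Leaving out 1 library ended it as well, at -0.17 (adjusted p = 0.0605) when siNT replicate 1 was dropped, -0.13 (adjusted p = 0.133) for siNT replicate 2 and -0.07 (adjusted p = 0.300) for siRpl11 replicate 2. Having no filter (adjusted p = 0.0526), no trend (adjusted p = 0.0586) or only the 2 groups compared (adjusted p = 0.0709) in the fit did so too.

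Bid, which caspase-8 cleaves to link death receptors to mitochondria, fell in siRpl11 and rose in siRpl14 and siRpl23. It was at 26.4 and 26.9 FPKM in siNT, 19.2 and 19.2 in siRpl11, 30.7 and 30.0 in siRpl14, 28.3 and 27.7 in siRpl18, and 29.5 and 31.4 in siRpl23. The third libraries gave 19.2 in siNT and 14.4, 26.2, 23.8 and 25.3, which places siRpl11 lowest and siNT next in both tables. The change was -0.45 ± 0.04 in siRpl11 (adjusted p = 9.70e-06), 0.18 ± 0.04 in siRpl14 (adjusted p = 0.00494) and 0.18 ± 0.04 in siRpl23 (adjusted p = 0.00430); siRpl18 was not called (0.07 ± 0.04, adjusted p = 0.196), but was with all 15 libraries (0.14, adjusted p = 0.0311). Quantile normalization ended the siRpl14 (0.10, adjusted p = 0.0840) and siRpl23 calls (0.10, adjusted p = 0.0806). Exons of Bid overlap those of Bcl2l13 on the opposite strand in GENCODE M21. Bcl2l13 was at 17.2 ± 0.00700 FPKM in siNT and 19.8 ± 0.538 in siRpl11 (n = 2). It was at 18.8 ± 0.710 in siRpl14, 20.7 ± 1.58 in siRpl18 and 19.1 ± 0.353 in siRpl23. Bcl2l13 was thus above siNT where Bid fell and also where Bid rose. What the overlap adds to the Bid values was not tested.

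Bcl2l11, which encodes Bim, a ligand of all pro-survival proteins and activator of Bax, was the member that was lower in siRpl14 and siRpl23. It was at 11.4 and 9.69 FPKM in siNT, 7.93 and 6.76 in siRpl11, 8.77 and 7.95 in siRpl14, 10.5 and 10.6 in siRpl18, and 8.91 and 8.61 in siRpl23. The third libraries gave 8.62 in siNT and 5.08, 8.15, 8.61 and 8.11. In both tables siRpl11 was lowest, while siRpl14, siRpl18 and siRpl23 lay close to siNT in the separately normalized table. Bcl2l11 fell by 0.47 ± 0.09 in siRpl11 (adjusted p = 0.000867), by 0.30 ± 0.09 in siRpl14 (adjusted p = 0.0133) and by 0.24 ± 0.09 in siRpl23 (adjusted p = 0.0360), with a value of 0.01 ± 0.09 in siRpl18 (adjusted p = 0.932, interval -0.19 to 0.21). The siRpl14 and siRpl23 calls ended without siNT replicate 1 (-0.19, adjusted p = 0.115, and -0.13, adjusted p = 0.259), and the siRpl23 call also with all 15 libraries (-0.19, adjusted p = 0.0834). The siRpl14 call also ended without siRpl14 replicate 2 (-0.24, adjusted p = 0.0918), and that of siRpl23 without siRpl23 replicate 1 (-0.26, adjusted p = 0.0766), without siRpl23 replicate 2 (-0.22, adjusted p = 0.130) and without the filter (adjusted p = 0.0703).

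Bik, a BH3-only protein of the endoplasmic reticulum, was the lowest of the tested members. It was at 3.79 and 3.20 FPKM in siNT, 1.34 and 1.26 in siRpl11, 3.04 and 3.90 in siRpl14, 2.42 and 1.91 in siRpl18, and 2.94 and 3.27 in siRpl23. Values in the third libraries were 3.14 in siNT and 1.37, 2.34, 1.54 and 2.58. Libraries of siRpl11 and siRpl18 lay below every siNT library, and those of siRpl14 and siRpl23 overlapped with siNT in the first table. Bik fell by 0.97 ± 0.12 in siRpl11 (adjusted p = 4.25e-05), to 37.1% of the mean siNT FPKM, and by 0.51 ± 0.12 in siRpl18 (adjusted p = 0.00326). It was at -0.01 ± 0.12 in siRpl14 (adjusted p = 0.936, interval -0.27 to 0.25) and -0.13 ± 0.12 in siRpl23 (adjusted p = 0.352, interval -0.39 to 0.13).

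The sign of a called difference was the same in the third libraries for 8 of 8 calls in siRpl14, 7 of 7 in siRpl18 and 8 of 8 in siRpl23. In siRpl11 it was the same for 6 of 7, with Pmaip1 as the exception. The share of all called genes that kept their sign was not counted, so these counts have no background beside them. The median difference of tested members in the third libraries was 0.43, 0.29, 0.38 and 0.08 in siRpl14, siRpl18, siRpl23 and siRpl11, beside 0.04, -0.02, 0.01 and -0.09 over the same genes as tested above.

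The size of the change was next compared among the 4 knockdowns. In a moderated F test over their differences, 8 of 9 tested members were called, beside 60.8% of all genes, and Bak1 was not (adjusted p = 0.260). Pmaip1 (adjusted p = 1.75e-07), Bcl2l1 (adjusted p = 2.42e-06) and Bid (adjusted p = 3.46e-06) had the smallest p-values. The knockdowns were then compared in 6 pairs, each adjusted over all genes.

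Against siRpl11, 6 of 9 members were higher in siRpl14, 8 in siRpl18 and 8 in siRpl23, and 0 were called lower in any of the 3 pairs. Of all genes 59.2%, 53.4% and 55.4% were called in either direction. The share of all genes called higher was not counted, though their medians were above 0 (0.13, 0.09 and 0.13). Without adjustment 7, 8 and 8 members had a p under 0.05, all of them higher. Pmaip1 was higher by 1.01 ± 0.06 in siRpl14 (adjusted p = 3.98e-07), 1.39 ± 0.06 in siRpl18 (adjusted p = 5.06e-08) and 1.06 ± 0.06 in siRpl23 (adjusted p = 2.65e-07). Bcl2l1 was higher by 0.93, 0.77 and 0.94, Bid by 0.63, 0.52 and 0.64, and Bik by 0.95, 0.46 and 0.84 in the same order, all called, although quantile normalization ended the Bik call in siRpl18 (0.19, adjusted p = 0.188). Bax was called higher by 0.17, 0.19 and 0.16, near the medians of all genes in these pairs (0.13, 0.09 and 0.13). Median-ratio scaling ended the 3 Bax calls (0.05, 0.11 and 0.04, with adjusted p = 0.494, 0.119 and 0.547). In siRpl23 it also ended those of Mcl1 (0.21 to 0.08, adjusted p = 0.1004) and Bcl2l11 (0.23 to 0.12, adjusted p = 0.269), the latter also ended by quantile normalization (0.01, adjusted p = 0.952). Bak1 differed by 0.10, 0.07 and 0.05 without a call. Bbc3 was higher by 0.29, 0.67 and 0.51, called in all 3 pairs and with either scaling as well. In the first table siRpl11 had the lowest mean FPKM of the 4 knockdowns for all 9 tested members. In how many other genes it did was not counted.

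Between siRpl18 and siRpl14, 4 members were higher in siRpl18 and 1 was lower, beside 14.3% of all genes called. Bbc3 was higher by 0.39 ± 0.05 (adjusted p = 0.00261), Pmaip1 by 0.38 ± 0.06 (adjusted p = 0.00319), Bcl2l11 by 0.31 ± 0.09 (adjusted p = 0.0444) and Mcl1 by 0.20 ± 0.04 (adjusted p = 0.0121), and Bik was lower (-0.50 ± 0.12, adjusted p = 0.0223). Between siRpl23 and siRpl18 limma called Pmaip1 alone, lower in siRpl23 (-0.34 ± 0.06, adjusted p = 0.0142), beside 3.51% of all genes; 7 members had an unadjusted p under 0.05. Between siRpl23 and siRpl14 limma called 0 members, beside 0.514% of all genes, and 2 had an unadjusted p under 0.05, namely Bbc3 (difference 0.23, interval 0.11 to 0.35) and Mcl1 (0.11, interval 0.02 to 0.20). The interval of the difference between siRpl23 and siRpl14 was -0.13 to 0.14 for Bcl2l1, -0.12 to 0.11 for Bax and -0.08 to 0.17 for Pmaip1.

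Genes that follow the same path to and from mitochondria were counted from fixed lists. Of 15 further Bcl2 family genes 10 passed the filter. Of these 8 fell and 1 rose in siRpl11, 7 fell and 2 rose in siRpl14, 7 fell and 3 rose in siRpl18, and 7 fell and 3 rose in siRpl23. Bcl2l14 and Hrk reached 1 FPKM in siNT libraries alone, so they had to differ. Without them 6 of 8 fell and 1 rose in siRpl11, 5 fell and 2 rose in siRpl14, and 5 fell and 3 rose in both siRpl18 and siRpl23, where of all genes 43.6%, 29.5%, 34.7% and 30.8% fell. The medians of these 8 genes were -0.58, -0.37, -0.40 and -0.37, beside -0.11, 0.02, -0.02 and 0.02 over all genes. Bnip3, a mitochondrial BH3-like protein of mitophagy and hypoxia, fell from 167 ± 4.57 FPKM in siNT to 55.0 ± 5.35 in siRpl11, 69.1 ± 5.24 in siRpl14, 62.0 ± 7.46 in siRpl18 and 57.0 ± 10.5 in siRpl23 (n = 2). Bmf, a BH3-only gene, fell from 10.8 ± 0.0295 to between 4.30 and 5.29 FPKM, and Bcl2l14 from 2.12 ± 0.702 to between 0.531 and 0.675. Hrk, another BH3-only gene, was at 2.08 ± 0.209 FPKM in siNT.

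Downstream of the mitochondria, all 19 genes of the apoptosome, caspases and their inhibitors were tested. Of these 4 rose and 8 fell in siRpl11, 3 rose and 6 fell in siRpl14, 3 rose and 8 fell in siRpl18, and 4 rose and 7 fell in siRpl23. Over all genes 27.3%, 33.3%, 32.8% and 34.9% rose and 43.6%, 29.5%, 34.7% and 30.8% fell in this order. The falls among these 19 were thus near the background in siRpl11 and siRpl14. The share of these 19 that rose lay below the share of all genes in each knockdown. Medians were -0.12, -0.02, -0.11 and 0.02, close to those of all genes in siRpl11, siRpl14 and siRpl23. Apaf1, the scaffold of the apoptosome, rose from 8.64 ± 0.617 FPKM to 12.6 ± 0.361 in siRpl11, 25.8 ± 0.266 in siRpl14, 30.2 ± 0.217 in siRpl18 and 27.4 ± 1.10 in siRpl23. Dffb, the nuclease that cuts DNA between nucleosomes, rose from 6.01 ± 0.432 to 11.9 ± 0.124, 18.4 ± 0.822, 17.6 ± 0.0839 and 19.8 ± 1.18. Casp9, the caspase that Apaf1 activates, fell from 7.83 ± 0.461 to 4.68 ± 0.278, 5.63 ± 0.225, 4.33 ± 0.0946 and 5.17 ± 0.0481 FPKM in the same order.

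Of 18 regulators of Bcl2 family transcription and protein turnover 17 were tested. In siRpl11 8 rose and 4 fell, in siRpl14 9 rose and 3 fell, and in both siRpl18 and siRpl23 9 rose and 2 fell, against the shares of all genes just given. Medians were 0.16, 0.44, 0.76 and 0.62, beside -0.11, 0.02, -0.02 and 0.02 over all genes. Mdm2 rose by 1.76 in siRpl11, 2.70 in siRpl14, 3.13 in siRpl18 and 3.04 in siRpl23, and Trp73, a p53 relative, by 1.46, 2.26, 2.97 and 2.54. Fbxw7, a ubiquitin ligase subunit with Mcl1 among its substrates, rose by 0.90, 1.41, 1.71 and 1.54. In these 3 genes siRpl11 had the smallest of the 4 changes, as in Bcl2l1. Trp53 had its largest rise in siRpl11 (1.54, against 0.71, 0.95 and 0.77).

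**Figure D4:**
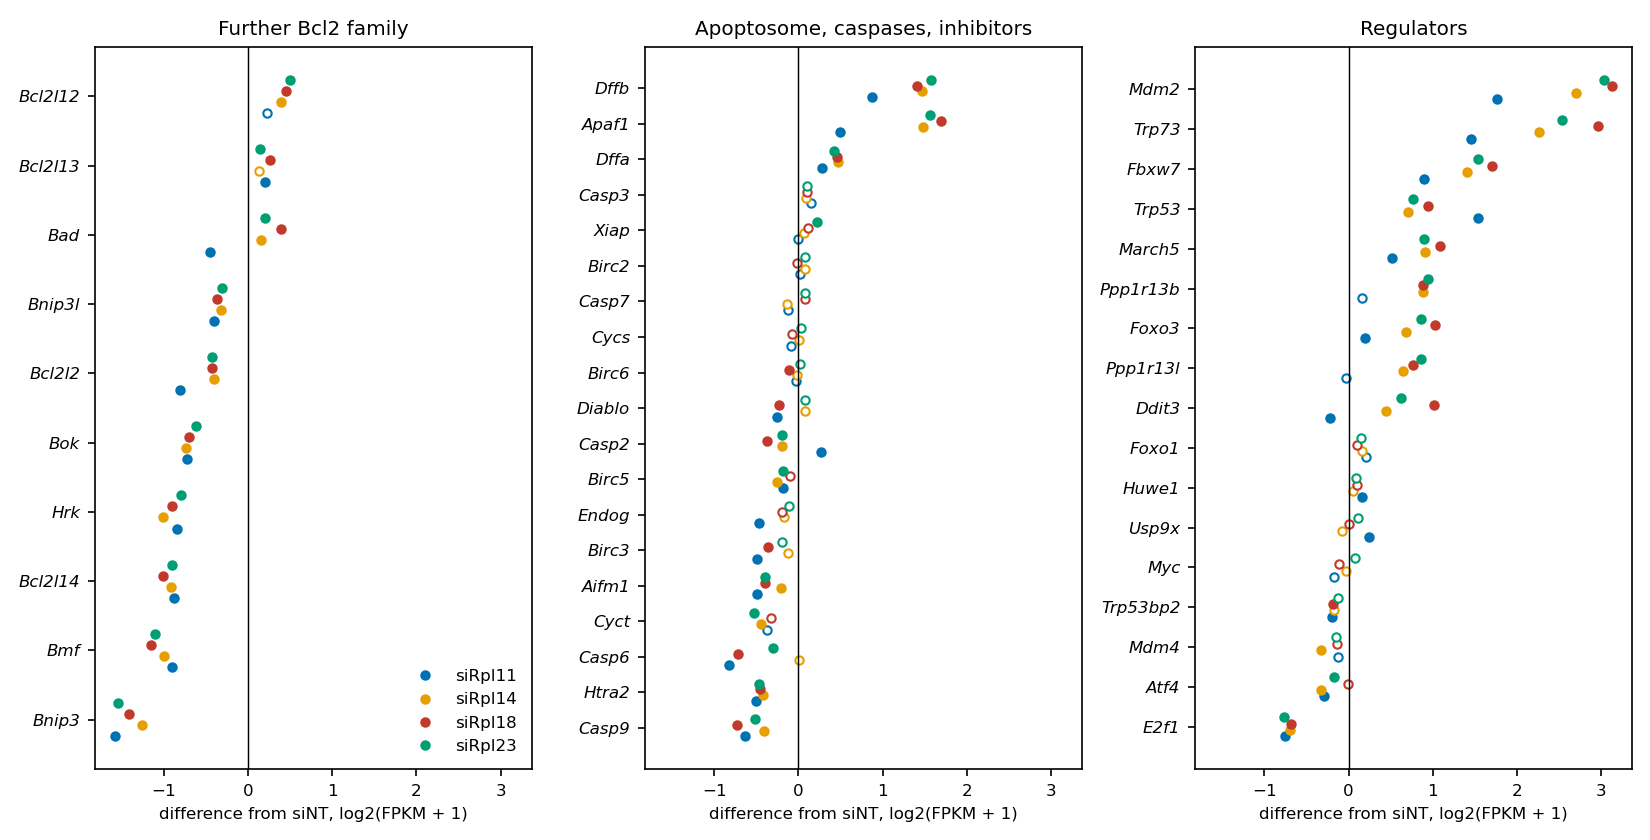
Difference from siNT on the log2(FPKM + 1) scale (x axis) for each tested gene of the 3 fixed lists (rows), by knockdown; filled points were called by limma and open points were not. Most of the further Bcl2 family lies left of 0, while Apaf1, Dffb, Mdm2, Trp73 and Fbxw7 lie furthest to the right in siRpl14, siRpl18 and siRpl23.

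The genes most like single members were found by the root mean square difference of the 4 log2 fold changes, from replicates 1 and 2 in 5 groups. Nearest to Bbc3 were Car2 (0.04) and Abhd6 (0.04), to Pmaip1 Vim (0.05) and Cpb2 (0.07), to Bax Zfp64 (0.01) and Zfp423 (0.02), to Bcl2l11 Ppt2 (0.05) and Drc1 (0.05), and to Mcl1 Kifc5b (0.02) and Dyrk3 (0.03). The likeness did not always extend to the third libraries. There Zfp64 differed from siNT by 0.40, 0.65, 0.61 and 0.56 in siRpl11, siRpl14, siRpl18 and siRpl23, near the values of Bax (0.33, 0.60, 0.51 and 0.49). Car2 differed by -0.19, 0.08, 0.47 and 0.22, far from the values of Bbc3 given above. Cpb2 and Drc1 were below 1 FPKM in every siNT library.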

How the data were processed

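RNA was measured in 15 libraries of E14 cells in 5 groups of 3. The authors deposited FPKM for each gene; STAR, Cuffnorm and mm9 are named in the submitters' processing notes, and versions, settings, annotation and use of strand were not given in the sources used here. Libraries were of stranded mRNA, per the labels' protocols. The 2 tables were normalized separately, so they were tested apart; 2 columns that match no sample here were not used.

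The filter kept 12249 of 24819 genes, those reaching 1 FPKM in 2 or more of the first table's 10 libraries. The model was fitted to log2(FPKM + 1) by limma 3.58.1 under R 4.3.3 (1 term per group, eBayes with trend, 5 residual degrees of freedom), and p-values were adjusted by Benjamini-Hochberg over all genes. Intervals of a difference are 95% limits from this fit, unadjusted. Outside that alternative the third library of each group gave differences only, with no test. Since no label states separate cultures, p-values measure only the spread between libraries, possibly a technical one.

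Members and lists were chosen with earlier results of these data known. All members are named. In each list the 3 genes with the largest mean change among those called in at least 3 knockdowns are named, with Trp53 and Mdm2. Bcl2l2, Hrk, Ggnbp1 and Bcl2l13 were added after their values were seen. Bax was not set against Bcl2, which lay below 1 FPKM. Alternatives were pseudocount, filter, scaling, trend, groups fitted, replicate block, all 15 libraries and leaving out each library.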

Additional observations from a re-analysis of the deposited data

How the results depend on the processing

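Depth is known only in relative terms, so counting error of the low genes Bcl2 and Bik could not be given. Of the single-member fold changes under the alternatives, 651 kept direction and side of the threshold, 19 lost a call, 6 gained one and 4 changed sign; the cause was not tested. The sign changes were in uncalled values: Bcl2l11 in siRpl18 with quantile normalization (-0.00097) and over the left-out libraries (-0.10 to 0.12), and Bik in siRpl14 over the left-out libraries (-0.15 to 0.13). Counts of members that rose against siNT stayed within 1.5 times, except 5 in place of 3 in siRpl11 with median-ratio scaling, where Mcl1 (0.18) and Bbc3 (0.19) passed. Members lower in siRpl18 went from 1 to 0 with a filter at 5 FPKM, which removes Bik, and those lower in siRpl23 from 1 to 0 with no filter and with all 15 libraries (Bcl2l11). Members higher in siRpl23 than in siRpl11 went from 8 to 5 with median-ratio scaling. Scalings of the knockdown pairs, and the further Bcl2 family without Bcl2l14 and Hrk, were chosen after seeing the data. Leaving out a library gave 0 to 1 lower members in siRpl14 and 0 to 1 in siRpl23. The no-filter counts include Bcl2.

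The replicate numbers 1 and 2 are shared by all groups, but the labels name no shared batch, and deviations of same-numbered libraries correlated between -0.09 and 0.20 over 10 pairs of groups (5 above 0.1), so they were not taken as pairs. With the replicate block, 4 members rose in siRpl11 in place of 3, with Mcl1 added (adjusted p = 0.0263), and the other counts against siNT were as without it.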
